A study of Mus musculus with 7 samples.

Results

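Genes of major histocompatibility complex (MHC) antigen presentation were examined in the left ventricle of 21-month-old male mice, 3 labelled eNOS knockout (M4, M10 and M140) and 4 labelled wild type (M23, M125, M128 and M158). Mice of the knockout group lack endothelial nitric oxide synthase, the enzyme encoded by Nos3. The labels give the aim as a comparison of old hearts of the 2 genotypes in relation to heart failure. They describe a decline of heart function with age and high mortality in male knockout mice, so that the mice studied were survivors. They name exercise as a keyword but give no exercise state, strain or treatment of any mouse. All mice shared sex and age, and each gave 1 array of the Affymetrix MOE430A design. Among the genes of the array, 12393 of which had a probe set of their own, 10 were chosen by name: H2-Aa, H2-Ab1, H2-Eb1, Cd74, H2-DMa and H2-DMb1 of the class II pathway, and H2-K1, H2-D1, B2m and Tap1 of the class I pathway. Every probe set that the platform table assigns to them was taken, which gave 32 of the 22690 probe sets on the array. Of these, 27 were assigned to 1 gene and 5 to several genes. H2-DMb1 had no probe set of its own, so that 9 of the 10 genes could be read separately.

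Class I molecules consist of a heavy chain, here H2-K1 or H2-D1, and beta-2 microglobulin, encoded by B2m. They carry peptides of the cell's own proteins, which the transporter subunit Tap1 helps to move into the endoplasmic reticulum, and nearly all nucleated cells make them. Class II molecules pair an alpha chain such as H2-Aa with a beta chain such as H2-Ab1, and they carry peptides of engulfed proteins. Cd74, the invariant chain, escorts them, and H2-DMa with H2-DMb1 forms the exchanger that loads their peptides. In the heart, class II is known mainly from resident macrophages and dendritic cells, and interferon gamma induces both classes.

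The promoters of both classes carry well-known elements, which are shown here as background. Sequences of the 250 bases before the transcript start were taken from RefSeq on GRCm38.p6, in which 8 of 9 members looked up had an entry. All 4 printed below lie on chromosome 17, in the MHC. Both strands were searched for motifs chosen with the sequences in view: ATTGG (the CCAAT box on the other strand), GCAACT (a core of the class II X box), TGACGTCA (the cyclic AMP response octamer, its own reverse complement, which holds the shorter TGACG), GGGATTCCC (a kappa B site) and TTTCACTTC (an interferon-type element). Capitals mark matches of those motifs; the shorter TGACG outside the octamer is left in lower case.
H2-Aa: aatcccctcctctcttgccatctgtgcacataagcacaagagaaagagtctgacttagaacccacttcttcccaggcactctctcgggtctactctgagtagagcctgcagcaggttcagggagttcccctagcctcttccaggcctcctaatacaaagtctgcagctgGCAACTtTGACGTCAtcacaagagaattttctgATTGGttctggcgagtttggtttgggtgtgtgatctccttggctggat
H2-Eb1: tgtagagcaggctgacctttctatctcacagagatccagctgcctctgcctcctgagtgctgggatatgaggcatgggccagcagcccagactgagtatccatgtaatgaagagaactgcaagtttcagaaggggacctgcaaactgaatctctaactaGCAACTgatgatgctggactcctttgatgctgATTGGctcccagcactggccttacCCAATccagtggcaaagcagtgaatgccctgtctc
H2-K1: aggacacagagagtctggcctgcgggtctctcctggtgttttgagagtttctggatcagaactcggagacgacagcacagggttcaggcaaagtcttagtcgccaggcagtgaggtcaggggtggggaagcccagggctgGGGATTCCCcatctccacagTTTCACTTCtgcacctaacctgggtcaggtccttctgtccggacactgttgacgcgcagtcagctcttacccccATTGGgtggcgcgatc
H2-D1: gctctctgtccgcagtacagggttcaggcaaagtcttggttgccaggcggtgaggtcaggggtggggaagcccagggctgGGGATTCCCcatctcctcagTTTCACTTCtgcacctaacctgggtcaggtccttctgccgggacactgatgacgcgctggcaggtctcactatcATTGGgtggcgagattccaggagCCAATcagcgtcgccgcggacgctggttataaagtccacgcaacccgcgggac
The windows are chr17:34287824-34288073 on the minus strand for H2-Aa, chr17:34305617-34305866 on the plus strand for H2-Eb1, chr17:34000348-34000597 on the minus strand for H2-K1 and chr17:35262844-35263093 on the plus strand for H2-D1. Both printed class II promoters held GCAACT followed by ATTGG, with 33 bases between their first letters in H2-Aa and 32 in H2-Eb1. The windows of H2-DMa and H2-DMb1, also of class II, held no GCAACT, and that of Tap1 of class I did hold it. The octamer TGACGTCA was in the H2-Aa window and had no match in that of H2-Eb1. Both heavy chain promoters held GGGATTCCC followed by TTTCACTTC, with 20 bases between their first letters in each. Over 177 aligned bases without a gap the H2-K1 and H2-D1 windows were 91% identical. Of 32851 RefSeq promoter windows of this length, 33.8% held ATTGG, 9.01% GCAACT, 1.55% TGACGTCA, 17.8% TGACG, 0.301% GGGATTCCC and 0.402% TTTCACTTC, and 12.4% held TATAAA, the TATA box. Such a match is a description of letters and was not tested for binding.

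**Figure D1:**
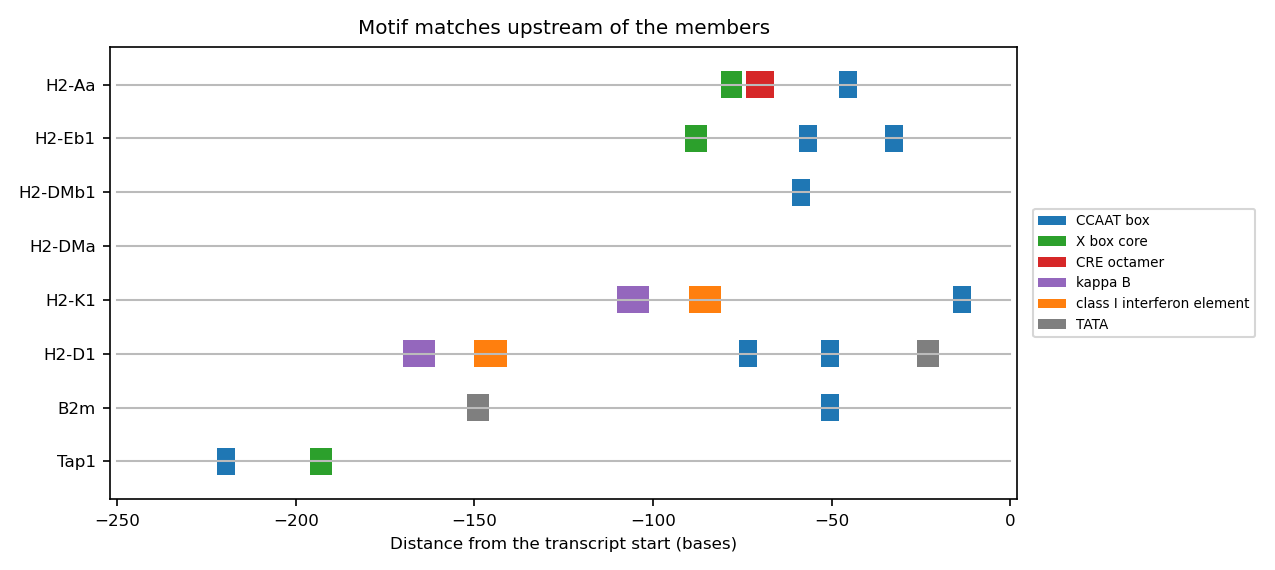
Motif matches in the 250 bases before the transcript start of 8 members; the horizontal axis is the distance from the start in bases, each row is a gene and each coloured bar a match on either strand. The kappa B and class I interferon motifs occur in H2-K1 and H2-D1. The X box core precedes a CCAAT box in H2-Aa and H2-Eb1, and it also occurs in Tap1. TATA is TATAAA.

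The values are the deposited intensities, which reflect brightness on a linear scale. Medians lay between 671 and 699 per array, and each array stopped at an upper limit of 44145 to 45552 that no member reached. Levels of different probe sets cannot be set against each other. Differences are given as log2(intensity + 16), knockout minus wild type, with their standard error (SE), and adjusted p-values are those of limma over all 13836 tested probe sets. No source says how the mice were bred or sampled, so that p-values measure the spread between these 7 arrays. Arrays were hybridized on 4 days: M140 and M128 on day 1, M125 on day 2, M4 and M10 on day 3, M23 and M158 on day 4. Day 1 alone held both groups, and for the other days day and group cannot be told apart. The Gapdh control signal, 5' over 3', was lowest on M23 (0.0978, against 0.34 to 0.777 on the other arrays), a sign of RNA or labelling quality. Myl7, an atrial myosin light chain, was high on M10 of the knockout group (17557) and M125 of the wild-type group (16097), against 356 to 2926 elsewhere. Equal values on at least 2 arrays, differing by less than 1e-06 of the value, occurred in 41.6% of all tested probe sets and in 6 of the 22 tested member probe sets. Their part in the spread between arrays was not tested. Heart muscle markers were bright, 7 of 8 reaching the upper limit on at least 1 array. Nos3 read 1145, 1413 and 1135 on the arrays labelled knockout against 791 to 1163 on the wild-type arrays (log2 difference 0.35 ± 0.15, limma adjusted p = 0.42). Where its probes lie in relation to the disrupted part of Nos3 is unknown here, and the level therefore checks no label.

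Of the 27 probe sets assigned to 1 gene, 19 passed the filter on dim values, and 0 of these had an adjusted p under 0.05 by limma (0% of all tested probe sets did). An unadjusted p under 0.05 was reached by 5 of the 19, against 11.8% of all tested probe sets. The 5 were the 2 probe sets of H2-Aa, both lower in the knockout (5.25% of all tested were lower at that p), and 2 of H2-K1 and 1 of H2-D1, all higher (6.57% of all tested were higher). The groups did not overlap for 2 of the 19, 1 of H2-Aa and 1 of H2-D1, against 9.30% of all tested. The 8 probe sets below the filter (1 of H2-Ab1, 4 of H2-D1 and 3 of Tap1) read between 129 and 475 on all arrays and were not tested.

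**Figure D2:**
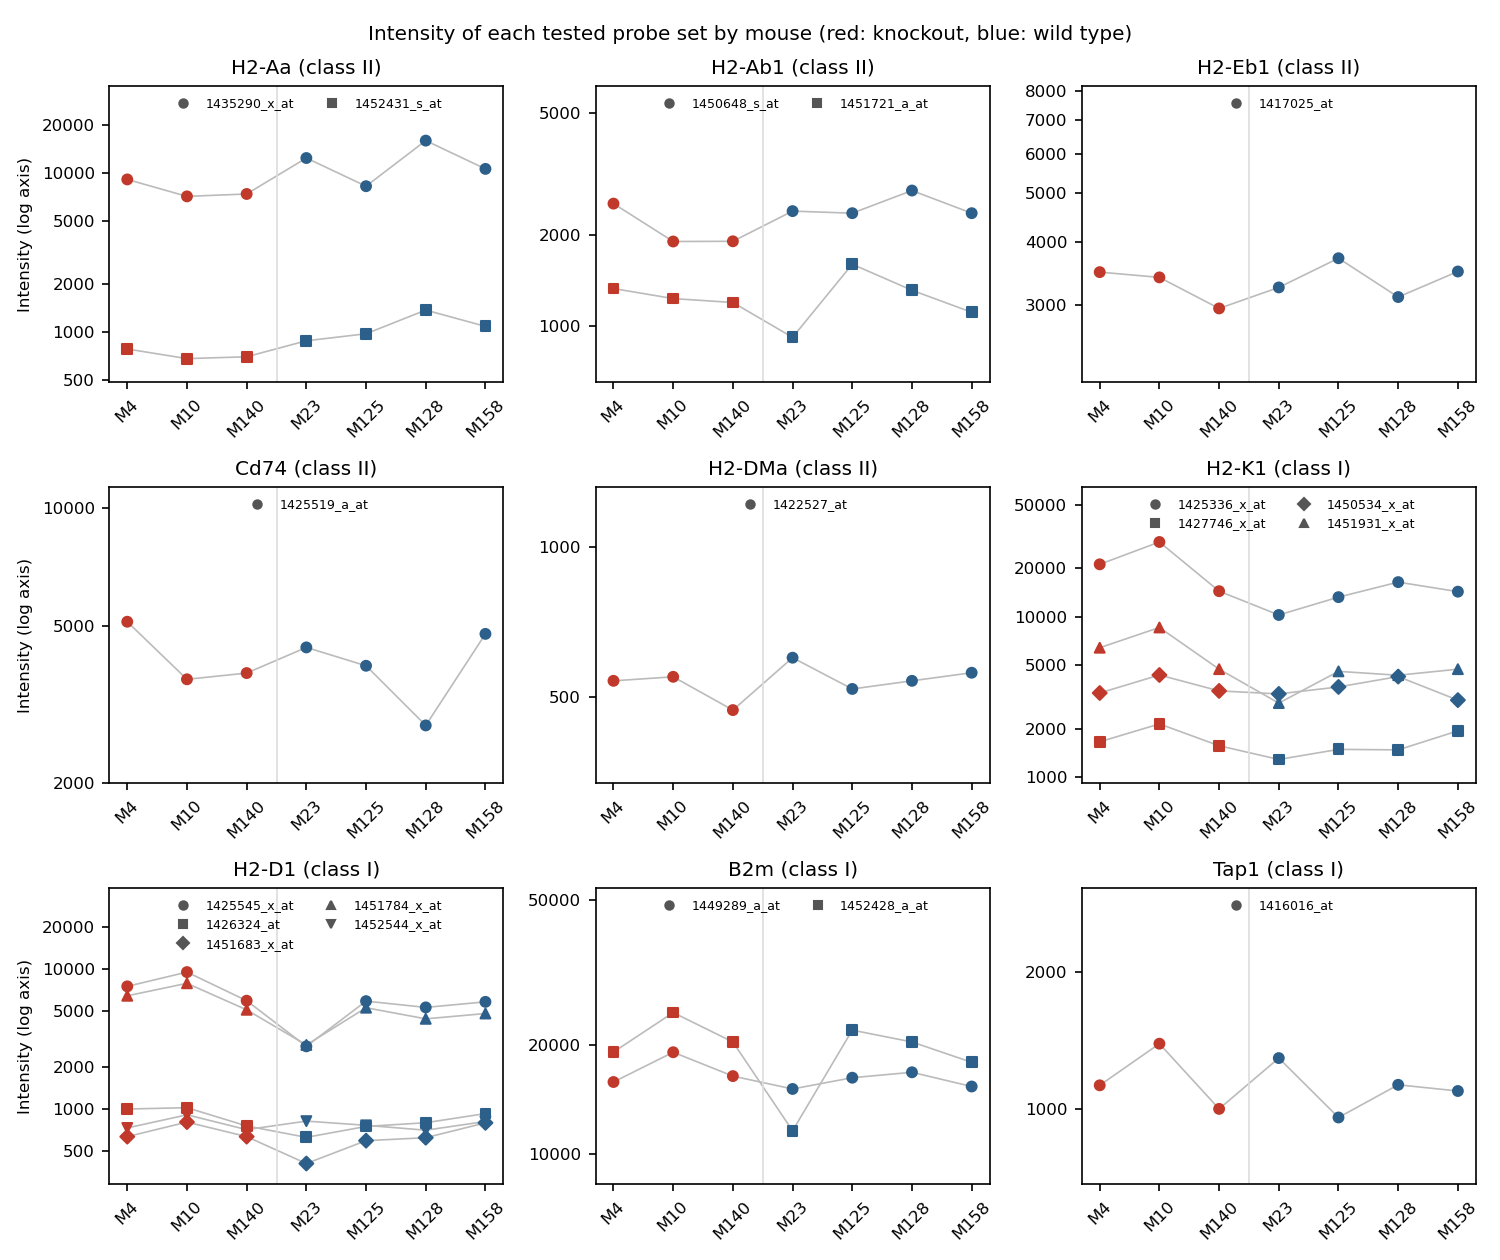
Deposited intensity (vertical log axis) of each tested probe set assigned to 1 member gene on each of the 7 arrays, 1 mouse each; symbols are probe sets, red is knockout and blue is wild type. H2-Aa lies low on the knockout arrays, and 4 probe sets of H2-K1 and H2-D1 lie high on M4 and M10 and low on wild-type M23.

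Among the class II chains, H2-Aa, the alpha chain of I-A, differed most. Its probe set 1452431_s_at read 786, 684 and 703 on M4, M10 and M140 of the knockout, and 885, 980, 1379 and 1090 on M23, M125, M128 and M158 of the wild type. All 3 knockout arrays lay below all 4 wild-type arrays. Mean intensity was 724 ± 54.4 (SD, n = 3) in the knockout and 1084 ± 214 (SD, n = 4) in the wild type, and the log2 difference was -0.55 ± 0.15 (SE; limma unadjusted p = 0.00511, adjusted p = 0.255). The other probe set 1435290_x_at read 9095, 7121 and 7372 on the knockout arrays and 12389, 8249, 15931 and 10589 on the wild-type arrays, in the same order of mice. Here the groups overlapped, since knockout M4 lay above wild-type M125. Mean intensity was 7862.5 ± 1075 (SD, n = 3) in the knockout and 11789 ± 3240 (SD, n = 4) in the wild type, and the log2 difference was again -0.55 (± 0.22; limma unadjusted p = 0.035, adjusted p = 0.389). Wild-type M128 was the highest array on both probe sets, and without it the differences were -0.43 and -0.39. Within day 1, knockout M140 lay below wild-type M128 by -0.96 and -1.11. Both identifiers carry a suffix that Affymetrix gives to probe sets whose probes may match related transcripts (_s_at and _x_at), and which transcripts those are was not tested.

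H2-Ab1, the beta chain that pairs with H2-Aa, was read by 2 tested probe sets that differed in their order of arrays. Its probe set 1450648_s_at read 2526, 1898 and 1901 in the knockout and 2387, 2350, 2788 and 2350 in the wild type. Knockout M10 and M140 lay below every wild-type array, and M4 lay above all but M128. The log2 difference was -0.24 ± 0.14 (limma adjusted p = 0.582). Within day 1 it was -0.55, and without M4 it was -0.37 (limma unadjusted p = 0.0325, adjusted p = 0.843). The probe set 1451721_a_at, of a kind whose probes match transcripts of a single gene, read 1331, 1234 and 1198 against 921, 1599, 1314 and 1113. The knockout arrays lay inside the wild-type range, and the difference was 0.05 ± 0.17 (limma adjusted p = 0.952, 95% interval -0.35 to 0.45). A difference of the size seen for H2-Aa lies outside that interval but inside that of 1450648_s_at (-0.57 to 0.09). The difference between the genes was not tested.

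H2-Eb1, the beta chain of I-E, read 3487, 3404 and 2953 against 3251, 3716, 3111 and 3497 on 1417025_at. The groups overlapped throughout, with a log2 difference of -0.05 ± 0.13 and a 95% interval of -0.34 to 0.25 (limma adjusted p = 0.929). Cd74, the invariant chain, read 5133, 3665 and 3801 against 4417, 3967, 2798 and 4781 on 1425519_a_at. Its lowest array was wild-type M128, the array on which both H2-Aa probe sets were highest. The log2 difference was 0.08 ± 0.22 (limma adjusted p = 0.926), and within day 1 it was 0.44.

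The peptide exchanger was read dimly. H2-DMa read 540, 550 and 471 against 600, 520, 540 and 560 on 1422527_at, a log2 difference of -0.09 ± 0.08 (limma adjusted p = 0.732). Knockout M140 alone lay below the wild-type range. The 2 probe sets of H2-DMb1 are also assigned to H2-DMb2 and cannot be told apart between these genes. The tested one, 1449580_s_at, read 886, 920 and 850 against 962, 890, 845 and 1012, with overlapping groups and a log2 difference of -0.06 ± 0.08 (limma adjusted p = 0.833). The other, 1418638_at, lay at 175 to 225 on all arrays and below the filter.

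Both class I heavy chains, by contrast, had probe sets that read higher on the knockout arrays, with M4 and M10 as the high arrays. On 1425336_x_at of H2-K1 the arrays read 21211, 29217 and 14435 in the knockout and 10263, 13253, 16438 and 14335 in the wild type. M4 and M10 lay above every wild-type array, and M140 lay inside the wild-type range. Mean intensity was 21621 ± 7399 (SD, n = 3) in the knockout and 13572 ± 2572 (SD, n = 4) in the wild type, and the log2 difference was 0.63 ± 0.24 (limma unadjusted p = 0.0322, adjusted p = 0.379). A second probe set of H2-K1, 1451931_x_at, read 6415, 8576 and 4718 against 2901, 4572, 4324 and 4718, with a difference of 0.65 ± 0.25 (limma adjusted p = 0.377).

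For H2-D1, 2 probe sets had differences of like size. The arrays read 7551, 9555 and 5962 against 2810, 5920, 5338 and 5850 on 1425545_x_at. M140 lay just above the highest wild-type array, so that the groups did not overlap, yet the difference of 0.66 ± 0.29 had a limma unadjusted p of 0.0529 and an adjusted p of 0.433. On 1451784_x_at the arrays read 6465, 7941 and 5130 against 2874, 5310, 4421 and 4826, a log2 difference of 0.59 ± 0.24 (limma adjusted p = 0.404).

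**Figure D3:**
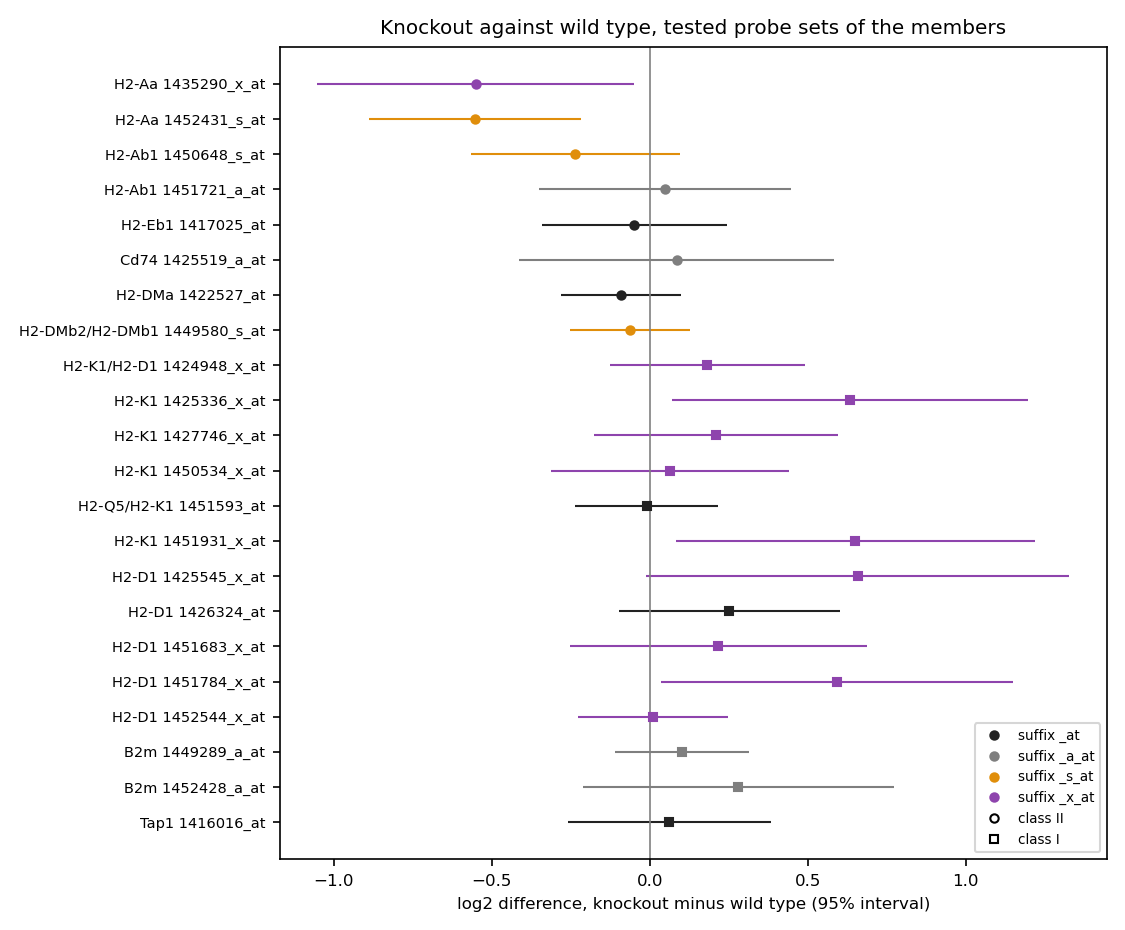
Log2 difference, knockout minus wild type, of the 22 tested probe sets that carry a member's name, with 95% intervals from limma (horizontal axis); colours give the identifier's suffix, circles class II and squares class I. The 2 H2-Aa intervals lie below 0, and 3 of the 4 probe sets near 0.6, all of the _x_at kind, have intervals above 0.

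These 4 heavy chain probe sets, singled out after their values were seen, had Pearson r of 0.891 to 0.99 between them over the 7 arrays (a description, with the arrays shared). They were picked by a difference over 0.5 on the same arrays, which by itself makes their profiles alike. The other 7 tested heavy chain probe sets, shared ones included, had r of 0.145 to 0.903 with these 4, so that the ranges overlap. M10 was highest and M23 lowest on each of the 4. The other 5 tested probe sets of H2-K1 or H2-D1 alone differed by less: 1427746_x_at and 1450534_x_at of H2-K1 by 0.21 and 0.06, and 1426324_at, 1451683_x_at and 1452544_x_at of H2-D1 by 0.25, 0.22 and 0.01. Their groups overlapped, and their limma adjusted p-values lay between 0.58 and 0.985. Of the heavy chain probe sets assigned to more genes, 1424948_x_at (H2-K1 and H2-D1) differed by 0.18 and 1451593_at (H2-Q5 and H2-K1) by -0.01. The third, 1422348_at (H2-D1, H2-Q2 and Gm38417), lay below the filter. M10 was the highest array on all 11 tested heavy chain probe sets.

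Nearly all heavy chain probe sets may share probes with related genes: every probe set of H2-K1 alone and 7 of 9 of H2-D1 are of the _x_at kind. Of the 19 tested probe sets of 1 gene, 11 were _x_at or _s_at, and these held all 5 with an unadjusted p under 0.05. Over the array, 11.0% of tested _x_at and _s_at probe sets had such a p. The 1 tested H2-D1 probe set without the suffix, 1426324_at, read 999, 1022 and 756 against 627, 750, 798 and 928. M4 and M10 were again highest, M23 lowest and M140 inside the wild-type range (log2 difference 0.25 ± 0.15, limma adjusted p = 0.58). Whether transcripts of one heavy chain gene hybridize to probe sets named for the other was not tested, so that H2-K1 and H2-D1 cannot be read as independent measurements.

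The height of the heavy chains went with particular arrays. Without knockout M10 the difference on 1425336_x_at was 0.39, and without wild-type M23 those on 1425545_x_at and 1451784_x_at were 0.41 and 0.40, from 0.66 and 0.59. Without M10 the count of member probe sets with an unadjusted p under 0.05 was 1 in place of 5, and it was also 1 without M23. The share of all tested probe sets at that p was not computed for these smaller sets of arrays. The fall in the count can therefore not be read as particular to the members. Over all tested probe sets, 74 had an adjusted p under 0.05 by limma without M10 and 0 without M23. Within day 1, knockout M140 minus wild-type M128 was -0.19 on 1425336_x_at, 0.13 on 1451931_x_at, 0.16 on 1425545_x_at and 0.21 on 1451784_x_at. M4 and M10, the 2 arrays on which the heavy chains were highest, were both hybridized on day 3, which held no wild-type array.

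B2m, the light chain shared by all classical class I molecules, read 15780, 19051 and 16382 against 15102, 16215, 16782 and 15338 on 1449289_a_at. M10 was highest and the groups overlapped, with a log2 difference of 0.10 ± 0.09 (limma adjusted p = 0.731). On 1452428_a_at it read 19076, 24487 and 20332 against 11591, 21913, 20332 and 17878, a difference of 0.28 ± 0.21 (limma adjusted p = 0.677). The 2 probe sets parted on wild-type M23, which was far below the other arrays on the second and near them on the first. Without M23 the difference on the second was 0.08, and with the Gapdh ratio as a covariate it was also 0.08. Tap1, the peptide transporter subunit, read 1129, 1394 and 1002 against 1296, 959, 1132 and 1097 on 1416016_at. Its groups overlapped, with a difference of 0.06 ± 0.14 (limma adjusted p = 0.912, 95% interval -0.26 to 0.38).

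Class I was then set against class II, each gene taken by its brightest tested probe set. The mean log2 difference was 0.41 over the 4 class I genes and -0.17 over the 5 class II genes that could be read, with medians of 0.46 and -0.09 against -0.0027 over all 8869 tested genes. Of these genes H2-K1 and H2-Aa had an unadjusted p under 0.05, against 12.2% of all tested genes. The class I differences were 0.63 for H2-K1 and 0.66 for H2-D1, against 0.28 for B2m and 0.06 for Tap1. H2-K1 and H2-D1 thus count as 2 of the 4 genes in the class I mean, although they cannot be read as independent measurements. The dimmer probe set of B2m, not used in that mean, differed by 0.10. As deviations from the mean of the 7 arrays, class I stood at 0.19, 0.56 and -0.05 on knockout M4, M10 and M140, and at -0.55, -0.07, 0.00 and -0.07 on the wild-type arrays in the order used above. The highest and the lowest array of class I were thus M10 and M23. Class II stood at 0.09, -0.16 and -0.22 in the knockout and at 0.13, -0.02, 0.07 and 0.11 in the wild type. M140 and M10 were lowest and M4 lay among the wild-type arrays. Class II minus class I was -0.10, -0.72 and -0.17 on the knockout arrays and 0.69, 0.05, 0.07 and 0.18 on the wild-type arrays. The groups overlapped in each class alone and lay apart in this difference, in which M10 and M23 were the extremes. No test was made of it, because the members were chosen with results known. Within day 1 it was -0.25. With the mean of all tested probe sets of each gene it was -0.39 in place of -0.58, from class I at 0.25 and class II at -0.14. Over the identifiers without a suffix tag it was -0.23, but that value rests on fewer genes. It sets H2-Eb1 and H2-DMa against H2-D1 and Tap1, and leaves out H2-Aa, H2-Ab1, Cd74, H2-K1 and B2m.

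**Figure D4:**
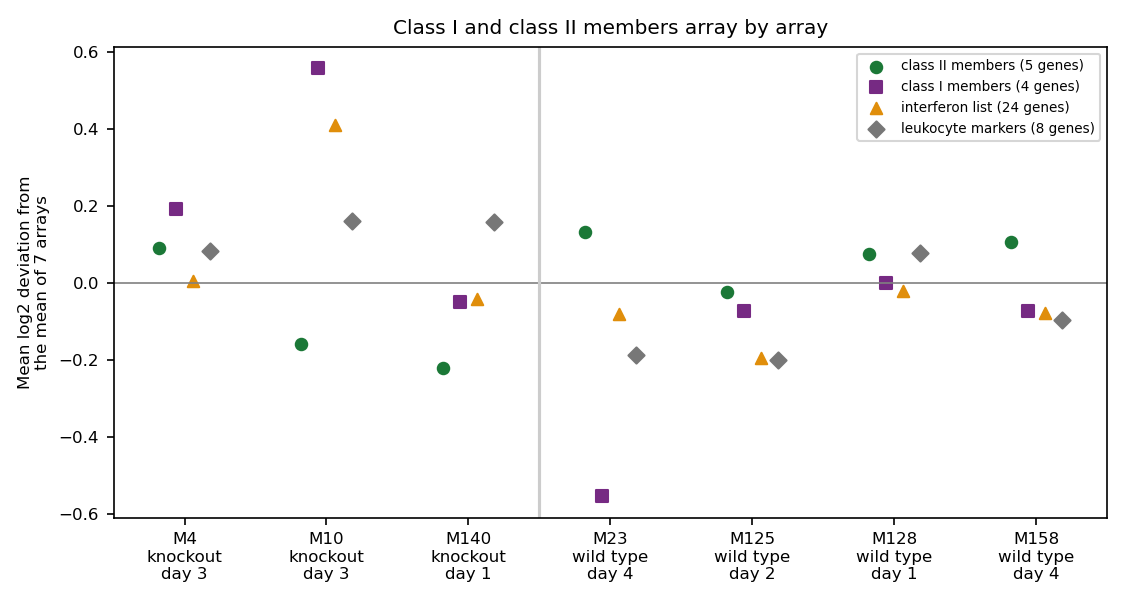
Mean log2 deviation from the mean of the 7 arrays (vertical axis) for the class II and class I members, the interferon list and the leukocyte markers on each array; labels give mouse, group and hybridization day. Class I and the interferon list are both highest on knockout M10, at 0.56 and 0.41, and class I is lowest on wild-type M23, at -0.55. The leukocyte markers stand at 0.16 on both M10 and M140.

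Other genes of class II presentation were taken from a list of 23, of which 15 were tested. An unadjusted p under 0.05 was met by 4, of which 3 were higher and 1 lower, against 12.2% of all tested genes, 0 had an adjusted p under 0.05, and the median log2 difference was 0.01. Ctsl, cathepsin L, an endosomal protease, read 12471, 12718 and 12115 in the knockout and 5209, 9053, 6360 and 7331 in the wild type. The groups did not overlap, and the difference was 0.86 ± 0.18 (limma adjusted p = 0.192). Ctss, cathepsin S, which trims the invariant chain, differed by 0.61 ± 0.19 (limma adjusted p = 0.299), and Ifi30, a lysosomal thiol reductase, by 0.28 ± 0.12 (limma adjusted p = 0.41). Both proteases also act in general protein breakdown. Within day 1 the differences of Ctsl and Ctss were 0.93 and 0.60. Rfxank, a subunit of the factor that binds the X box, was the lower one, at -0.34 ± 0.12 on 1419310_s_at (limma adjusted p = 0.363), while its other tested probe set 1455371_at differed by 0.23. H2-Ea, the alpha chain of I-E, and the factor subunit Nfya differed by 0.23 and 0.14. Both probe sets of Ciita, the class II transactivator, lay below the filter.

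Of 36 further class I genes listed, 16 were tested, with a median log2 difference of 0.07. An unadjusted p under 0.05 was met by 3 of the 16, all lower, against 12.2% of all tested genes. The lower ones were H2-Ke6, an enzyme gene of steroid and lipid metabolism that lies in the MHC and presents no antigen (-0.61 ± 0.15), Psme1, a proteasome activator subunit (-0.40 ± 0.15), and Cd1d1, which presents lipids (-0.30 ± 0.11). Their limma adjusted p-values were 0.233, 0.378 and 0.377. Calr, H2-M3 and Psmb10 differed by 0.28, 0.20 and 0.32. The immunoproteasome subunits Psmb8 and Psmb9, which are induced by interferon gamma, were highest on knockout M10, at 1967 and 1360, against 1099 to 1408 and 759 to 1060 on the other arrays. The remaining subunit, Psmb10, was not: M10 read 3176, below M4 at 3469 and M140 at 3468. Tap2, the partner of Tap1, differed by -0.01 and Tapbp, tapasin, by 0.30. The 3 constitutive counterparts Psmb5, Psmb6 and Psmb7 differed by -0.30, -0.16 and 0.14.

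Most tested probe sets of nonclassical heavy chains are shared between genes. M10 was the highest array on each tested probe set of H2-Q and H2-T genes and of H2-M3. On that of Cd1d1 it was not, at 820 against 1055 on wild-type M128. The probe set of H2-Q6 and H2-Q8 (1431008_at) read 4378, 10048 and 2137 on M4, M10 and M140 and 3406, 2645, 3558 and 3577 on the wild-type arrays. That of H2-Q7 and H2-Q9 (1418536_at) read 1165, 2636 and 600 against 1164, 657, 1090 and 992. In both, M10 was far above all other arrays and M140 was the lowest. The differences were 0.47 ± 0.45 and 0.36 ± 0.44 (limma adjusted p = 0.748 and 0.819). The probe set of H2-T23 and a pseudogene (1449556_at) read 7662 on M10 and 2207 to 4919 on the other arrays. Of the 2 shared by H2-T9, H2-T22 and H2-T10, 1449875_s_at read 2053 on M10 against 1144 to 1569, and 1439121_at 616 against 567 to 597. The probe set of H2-T3 alone, 1452548_x_at, read 1510 on M10 against 1043 to 1309.

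Genes of interferon signalling, 24 tested of 34 listed, had a median log2 difference of 0.16, and 9 had an unadjusted p under 0.05, 7 of them higher and 2 lower, against 12.2% of all tested genes. The interferon-induced RNA-binding protein Ifit3 read 2140, 2482 and 1576 against 981, 1038, 845 and 1253, a difference of 0.98 ± 0.18 (limma adjusted p = 0.154), and 0.89 within day 1. Oasl2, Ifi27l2a, Ifit2 and Ifit1 differed by 0.99, 0.87, 0.82 and 0.80, and the chemokine Cxcl9 by -0.30. M10 was the highest array for 14 of the 24 genes, for 7 of the 16 class I pathway genes and for all 4 class I members, but for 0 of the 5 class II members and for 17.8% of all tested genes. A high M10 was not particular to these lists. M10 was also highest for 5 of 8 leukocyte, 2 of 3 dendritic cell and 2 of 5 T and natural killer cell markers. For macrophage and monocyte markers it was highest for 0 of 17. The probe set of the GTPases Tgtp1 and Tgtp2, targets of interferon gamma, read 10065 on M10 and 1940 to 4142 on the other arrays. It is shared by both genes and is not part of the 24. Among the 24, Igtp was highest on M10 at 3117, but Irgm2 on wild-type M23 (1637, against 1490 on M10). Iigp1 was highest on wild-type M128 on both of its probe sets (2614 and 3171, against 2600 and 2667 on M10). Igtp, Irgm2 and Iigp1 differed by -0.11, -0.20 and -0.21 on their brightest probe sets.

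Cells that carry class II could differ in number between hearts, and fewer cells of a type and less RNA per cell cannot be told apart in whole ventricle. Marker lists are given as intensities summed per array, in which bright probe sets weigh most. The leukocyte list (8 of 8 tested, 8 higher and 0 lower) summed to 9054 to 9806 on the knockout arrays and 7392 to 9024 on the wild-type arrays. Its median log2 difference was 0.21, against -0.0027 over all tested genes. At an unadjusted p under 0.05, 1 of its genes was higher and 0 lower, against 12.2% of all tested genes. Of this list, Ptprc, the common leukocyte antigen CD45, differed by 0.39 ± 0.20 (limma adjusted p = 0.507). Macrophage and monocyte markers (17 of 20 tested) summed to 41650 to 53354 and 32143 to 50677. At an unadjusted p under 0.05, 4 were higher and 0 lower, among them Cd68 and Csf1r at 0.43 and 0.49, although 2 dimmer probe sets of Csf1r differed by 0.11 and 0.23. The same p was met by 12.2% of all tested genes. Of the 17 tested, 15 were higher and 2 lower in the knockout, with a median of 0.17. Some lay near 0, such as C1qa at -0.05, Mertk at -0.07 and Mrc1 at 0.04. Dendritic cell markers (3 of 10 tested) summed to 2705 to 3377 and 2609 to 3190, and Itgax differed by -0.05. B cell markers (4 of 10 tested) summed to 6067 to 7042 and 5179 to 6231. Cd79a read 407 to 544 on all arrays and lay below the filter. T and natural killer cell markers (5 of 14 tested) summed to 4580 to 5189 and 4846 to 5807, with Cd3e and Cd4 at -0.13 and -0.07. Endothelial markers (10 of 10 tested) summed to 25296 to 26792 and 18353 to 27200, and Pecam1 differed by 0.32. No defining marker was at 0, since the deposited scale starts near 90 and dim probe sets cannot be told from background. The part of these cells in the members' levels was not tested. With Myl7 as a covariate the class I mean difference was 0.38, and without M10 and M125 it was 0.28. With the Gapdh ratio as a covariate it was 0.31. The class II mean was -0.16, -0.17 and -0.13 under the same 3 alternatives.

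The genes outside the members with the profile most like that of class II over the 7 arrays were Ubxn11, Steap3, Tomm7, Ten1 and Fam136a, with Pearson r of 0.944 to 0.934. For class I they were Akr1c6, Itsn2, Chrnb2, Nt5dc3 and Gprc5d, with r of 0.971 to 0.958. They were the closest of all tested genes on 7 arrays, and no test was attached to them.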

How the data were processed

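Left ventricle RNA of 7 mice was measured on MOE430A arrays, and 7 labelled samples form the 2 groups. The deposited table holds intensity values on a linear scale; the software, background correction and scaling behind them are not stated in any source used here. From the values, the deposited intensities were never below 86.5 and stopped at an upper limit, and both compress differences. Hybridization days come from the experiment sheets, per the file headers. The 64 control probe sets were left out. The platform table (unstated software) named 1 gene for 20380 of the other 22626 probe sets, several for 691 and none for 1555. Of the first, 20351 matched the GRCm38.p6 gene table.

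Values were taken as log2(intensity + 16). Probe sets entered the test (13836) when at least 3 arrays read them above that array's 40th percentile. The groups were compared with limma 3.58.1 in R 4.3.3 (lmFit, eBayes with trend, two-sided, no covariate, Benjamini-Hochberg over all tested probe sets, threshold 0.05). The fit was tested on simulated data. Genes were taken by the tested probe set with the highest mean (8869). Named genes were the members, up to 6 genes of smallest p in each of 3 pathway lists, the 5 most alike profiles for each class, Nos3 and defining cell markers; the shared nonclassical probe sets, Psmb8, Psmb9, Tap2, Tapbp and Tgtp1 were added after their values were seen. The members and lists were chosen with earlier results of these data known. Mouse numbers are not shared between groups, so nothing is paired. Alternatives were the offset, quantile and normexp processing, the filter, the variance trend, array weights, the threshold, hybridization day, Myl7 or the Gapdh ratio as a covariate, and arrays left out. For the class means the choice of probe sets was also varied.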

Additional observations from a re-analysis of the deposited data

Results flagged for a closer look

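Within the 4 wild-type arrays, 2 of the 22 tested probe sets of the members had an array farther from the nearest other than Dixon's 95% critical value allows, as a share of the range. The nominal chance rate is about 1 in 20, so that 2 of 22 is not set apart from chance. The share of all tested probe sets past this value was not computed. On 1450648_s_at wild-type M125 and M158 both read 2350, and on 1451593_at wild-type M128 and M158 both read 1170. With such equal readings the nominal rate is only a rough guide, and no conclusion is drawn from the count. H2-Ab1 read 2788 on wild-type M128 at 1450648_s_at, against 2350 to 2387 on the other 3, a ratio of 0.915. That array was also highest on both probe sets of H2-Aa. The shared probe set of H2-Q5 and H2-K1, 1451593_at, read 1258 on wild-type M125, against 1154 to 1170 on the other 3, a ratio of 0.842. Wild-type M23, the lowest array on the 4 heavy chain probe sets with the larger differences, was not among those past the critical value. That does not make M23 typical of its group. On 1425545_x_at it read 2810, against 5338 to 5920 on the other 3, and without it the difference was 0.41 in place of 0.66.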

How the results depend on the processing

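No member probe set had an adjusted p under 0.05 under any alternative run, and 3 met a looser rule of 1.5-fold with an unadjusted p under 0.05. Over all tested probe sets, in place of 0, 619 were called with array weights, 21 at an adjusted p under 0.10, 495 under that looser rule, 1 each with the 60th percentile, the day as a fixed block, probe sets below the upper limit or without M23 and M158, 2 without M10 and M125, and 0 to 74 without 1 array. With the day as a fixed block, which rests on M140 and M128, the class II mean was -0.297, the class I mean -0.0504 and their difference -0.246. Among probe sets whose difference exceeded 1 SE, those that changed sign under it were 1424948_x_at (-0.0402), 1425336_x_at of H2-K1 (-0.187), 1426324_at of H2-D1 (-0.0756) and 1449289_a_at of B2m (-0.0347). Among those within 1 SE of 0, for which no direction is given, sign also changed for 1450534_x_at of H2-K1 (-0.296), Tap1 (-0.174), 1451721_a_at of H2-Ab1 (-0.131) and 1449580_s_at (0.0082). Over identifiers without a suffix tag, which leave H2-Eb1 and H2-DMa against H2-D1 and Tap1, the difference between the classes was -0.227. With the mean of all tested probe sets of each gene it was -0.387. Leaving out 1 array gave class II means of -0.263 to -0.106, class I means of 0.246 to 0.551 and differences of -0.692 to -0.383. H2-Aa was lower under all 22 alternatives run on probe sets, by -0.957 to -0.433 on 1452431_s_at (unadjusted p of 0.00207 to 0.0322) and -1.11 to -0.354 on 1435290_x_at (p under 0.05 in 14 of 22). The count of member probe sets with an unadjusted p under 0.05, in place of 5, was 2 with the day as a fixed or random block or without M10 and M125. It was 1 with the Gapdh ratio as a covariate or without M23 and M158, and 1 to 6 without 1 array. These counts need not be of the same probe sets. The share of all tested probe sets at that p was not computed under the alternatives, so that the counts have no background beside them. No paired analysis was possible because the groups share no mouse number. Precision is limited by 3 and 4 arrays and, for dim probe sets, by the unstated background correction.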
